A study of Mus musculus with 16 samples.

Results

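In the livers of mice given emodin, 128 genes were expressed below the vehicle range in every one of the treated livers. They were selected on the measured values themselves: the highest of 8 emodin livers had to lie below the lowest of 8 vehicle livers, in CPM, the usual unit that scales a gene's estimated count to the total of its library. Genes with an Ensembl identifier and a mean of at least 1 CPM over the 16 livers entered, 11680 of the 21833 Ensembl genes in the table. Of these, 138 met the condition, which is 1.18% of the genes that entered, and 125 genes (1.07%) met the opposite condition, the lowest emodin liver above the highest vehicle liver. Of 11 genes left out by name (Bcl6, Sc5d, Abcd2, Stard4, Klb, Hsd3b7, Gstm6, Gstt1, Fads3, Elovl5 and Calcrl), 10 met it, and the remaining 128 are described here. Gstt1 did not, with 174.8 CPM in the highest emodin liver against 169.9 CPM in the lowest vehicle liver. Because these values chose the genes, their differences between emodin and vehicle are given as a description, with no test.

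All the animals were wild-type C57BL/6 mice, acclimated for 7 days and kept on an even cycle of light and dark. The emodin group received 400 mg/kg of emodin, an anthraquinone found in rhubarb and other medicinal plants, into the stomach over 3 weeks, in 0.5% sodium carboxymethyl cellulose. The vehicle group received the carrier without the compound. The mice were euthanised after the final dose and the liver removed at once, and its RNA was sequenced in 16 libraries, 8 per group. The labels do not say that each library is a separate animal, so the spread between libraries may be partly technical. Library totals ran from 28.7 M to 38.6 M (M, mega) estimated counts in the vehicle group and from 28.3 M to 48.2 M in the emodin group.

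A hepatocyte takes up bile salts from portal blood, conjugates newly made bile acids and exports them into bile, and it burns and remodels fatty acids in mitochondria, peroxisomes and the endoplasmic reticulum. Its gene expression is set by nuclear receptors and chromatin regulators together with hormone, calcium and kinase signals. The liver also holds endothelial, stellate, Kupffer and bile duct cells, whose RNA is part of every bulk library. In bulk tissue, fewer cells of a type and less RNA per cell cannot be told apart.

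The 4 genes taken as markers of the set are Setd4, Camk1d, Atxn1 and Nrep. Setd4 encodes a SET domain lysine methyltransferase and Camk1d a calcium and calmodulin dependent kinase. Atxn1 encodes a chromatin-associated protein that binds the repressor capicua, and Nrep a small protein named for neuronal regeneration. Promoter windows from RefSeq (GRCm38.p6, 250 bases before to 50 after an annotated start) were matched by symbol for 94 of the 128 genes. The windows of Camk1d, Setd4 and Nr3c2 are printed because these 3 had the widest separation between the groups among the genes with a printable window. Nr3c2 encodes the mineralocorticoid receptor. Capitals mark CCAAT or, on the other strand, ATTGG. The Setd4 window spans chr16:93603766-93604065, on the minus strand. The 2 Camk1d windows, also on the minus strand, span chr2:5714713-5715012 and chr2:5675997-5676296, and the Nr3c2 window spans chr8:76902080-76902379, on the plus strand.
Setd4: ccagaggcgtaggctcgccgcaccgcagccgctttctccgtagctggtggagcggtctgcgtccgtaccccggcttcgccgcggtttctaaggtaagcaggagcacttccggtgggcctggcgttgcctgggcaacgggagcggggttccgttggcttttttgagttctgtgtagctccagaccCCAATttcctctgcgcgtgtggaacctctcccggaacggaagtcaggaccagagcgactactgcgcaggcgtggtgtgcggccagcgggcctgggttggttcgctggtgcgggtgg
Camk1d, first start: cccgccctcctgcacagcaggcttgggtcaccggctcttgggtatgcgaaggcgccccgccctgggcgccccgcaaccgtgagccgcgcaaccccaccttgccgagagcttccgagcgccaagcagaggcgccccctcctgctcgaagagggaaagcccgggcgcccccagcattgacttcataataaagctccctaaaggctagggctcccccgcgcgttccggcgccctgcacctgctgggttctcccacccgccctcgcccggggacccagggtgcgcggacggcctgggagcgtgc
Camk1d, second start: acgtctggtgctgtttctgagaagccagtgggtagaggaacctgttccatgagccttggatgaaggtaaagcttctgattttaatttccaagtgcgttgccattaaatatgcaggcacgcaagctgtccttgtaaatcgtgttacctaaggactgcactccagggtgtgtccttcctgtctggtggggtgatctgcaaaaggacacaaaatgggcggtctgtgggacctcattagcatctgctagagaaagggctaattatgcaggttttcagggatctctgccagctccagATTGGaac
Nr3c2: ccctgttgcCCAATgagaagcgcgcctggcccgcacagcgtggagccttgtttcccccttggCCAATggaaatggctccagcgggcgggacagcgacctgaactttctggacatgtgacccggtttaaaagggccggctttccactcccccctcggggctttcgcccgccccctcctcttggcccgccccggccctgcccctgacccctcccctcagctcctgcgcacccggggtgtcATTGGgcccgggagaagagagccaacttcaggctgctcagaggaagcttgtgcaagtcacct
The Nr3c2 window held 3 such matches, the Setd4 window 1, the second Camk1d window 1 and the first Camk1d window none. Over all 133 windows of the matched genes, 45.11% held CCAAT on either strand, against 37.41% of the 32851 windows of the same length in the table. TTCNNNGAA, a type of site that STAT factors and BCL6 can bind, was present in 5.26% of the windows against 8.3% of all, in those of Bach2, Camk1d, Hadha, Prkd3, Slc10a1, Tmem135 and Tnfrsf19. AGAACA, the core hexamer that steroid receptors can bind, was present in 15.04% against 18.97%, TATAAA in 12.03% against 13.62%, and CACGTG in 6.02% against 7.15%. TGTTTAC, of the forkhead type, was present in 4.51% against 3.65%, and TGAGTCA, of the AP-1 type, in 3.01% against 5.2%. TGACGTCA (1.5% against 1.79%), TTATGTAA or TTACGTAA (1.5% against 1.06%) and CAAAGTCCA (0.75% against 0.47%) were rare. Both strands were searched for each, and none of these motifs contains another. A match is a string of letters and not a shown site, and a missing match says only that the letters are not in that window. The median GC content was 55.0% in the genes' windows and 52.7% in all windows. All windows together cover 27025 genes, not only the 11680 that entered the selection. Motif shares and GC content among windows of the genes that entered were not counted.

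Per liver, the 128 genes were lowered to different depths. With each gene set to its vehicle mean, the median over the genes was 95.9% to 103.6% in the vehicle livers and 59.6% to 78.5% in the emodin livers. Emodin 1 (78.5%), emodin 3 (76.1%) and emodin 7 (73.2%) had the least lowered medians, and emodin 4 (59.6%), emodin 2 (62.97%) and emodin 8 (65.0%) the most lowered. Emodin 1 was the highest of the treated livers for 39 of the 128 genes, followed by emodin 3 and emodin 7 with 23 each. Emodin 4 was the lowest for 44. On the vehicle side, vehicle 8 was most often the lowest liver, for 27 genes. The heat map of all genes by liver shows this as paler columns for emodin 1 and emodin 3.

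**Figure D1:**
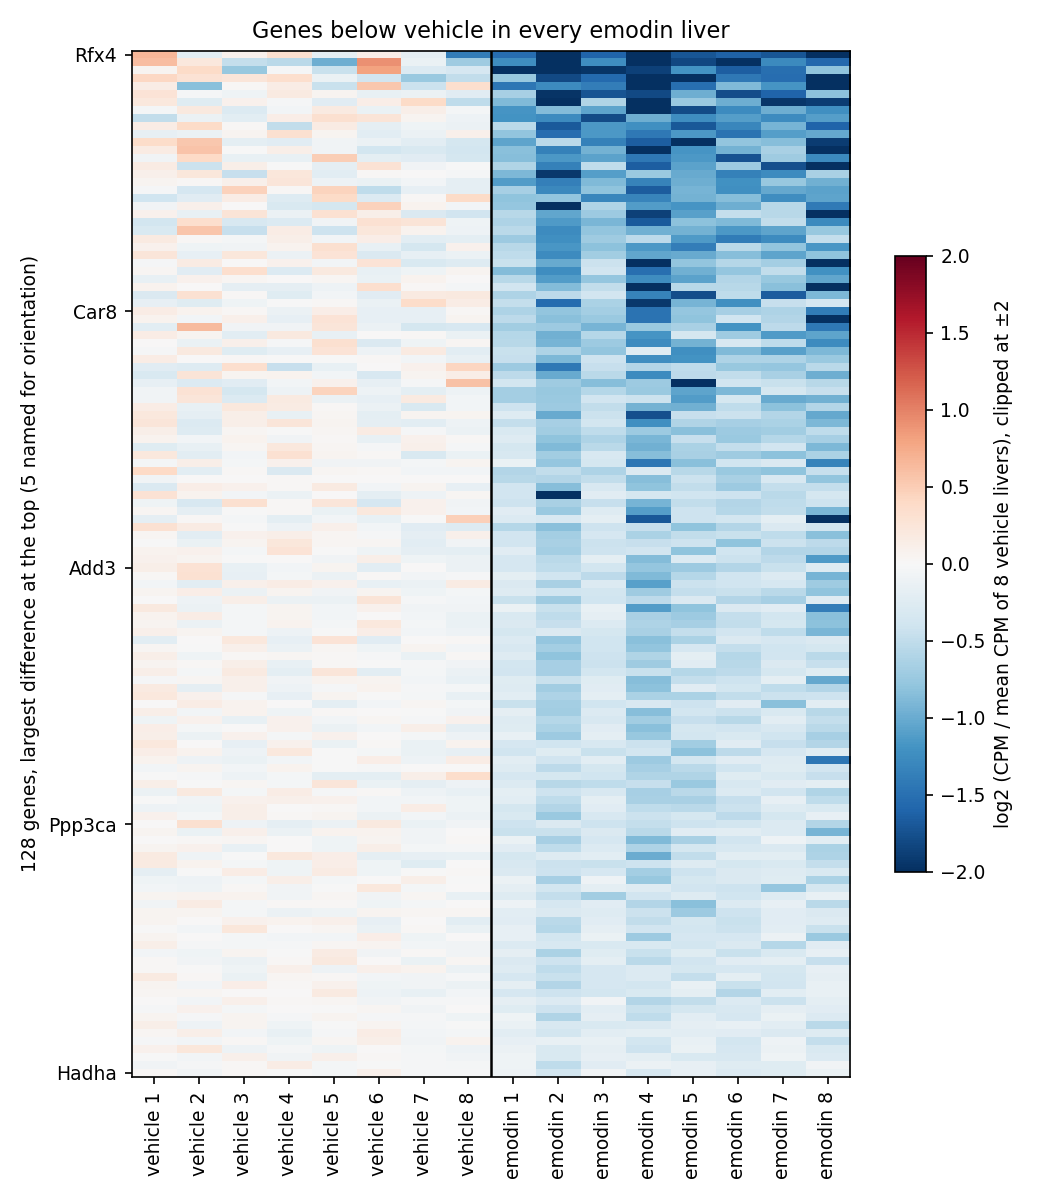
Each row is 1 of the 128 genes, ordered by edgeR log2 fold change, and each column is 1 liver. Colour gives log2 of CPM over the gene's mean in the 8 vehicle livers, clipped at 2 on either side. The vehicle columns lie around 0 but spread more in some top rows, such as Nrep, at 6.52 to 24.2 CPM in the vehicle livers. The emodin columns are blue in every row, most deeply at the top.

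Acute phase genes differed between the same livers. Saa1, a serum amyloid A of the acute phase, was at 61.5 CPM in emodin 1 and 67.6 CPM in emodin 3, beside a highest vehicle liver of 63.2 CPM. It was at 4217 CPM in emodin 2, 3631 CPM in emodin 4 and 2761 CPM in emodin 8. Thus the 2 livers in which the 128 genes were least lowered had Saa1 near the vehicle range, and the 3 in which they were most lowered had the highest Saa1. Between them, emodin 7 (median 73.2%) had 375.5 CPM, emodin 6 (72.0%) 178.8 CPM and emodin 5 (67.7%) 1158 CPM. The order of the livers by Saa1 therefore did not match their order by median throughout. By edgeR's quasi-likelihood test, 23 of 29 acute phase genes and 22 of 28 interferon-stimulated genes were called higher in emodin, and none lower. The acute phase list summed to between 23796 and 29430 CPM in vehicle and between 26460 and 89602 CPM in emodin livers, and the interferon list to between 389.9 and 626.9 CPM and between 427.5 and 4360 CPM. The interferon count was 1 with the replicate number as a block and 1 with array weights in limma-voom. The part of these changes in the lower levels of the 128 genes was not tested. Emodin 1 and emodin 3 each lay below all 8 vehicle livers for all 128 by the way the genes were chosen.

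**Figure D2:**
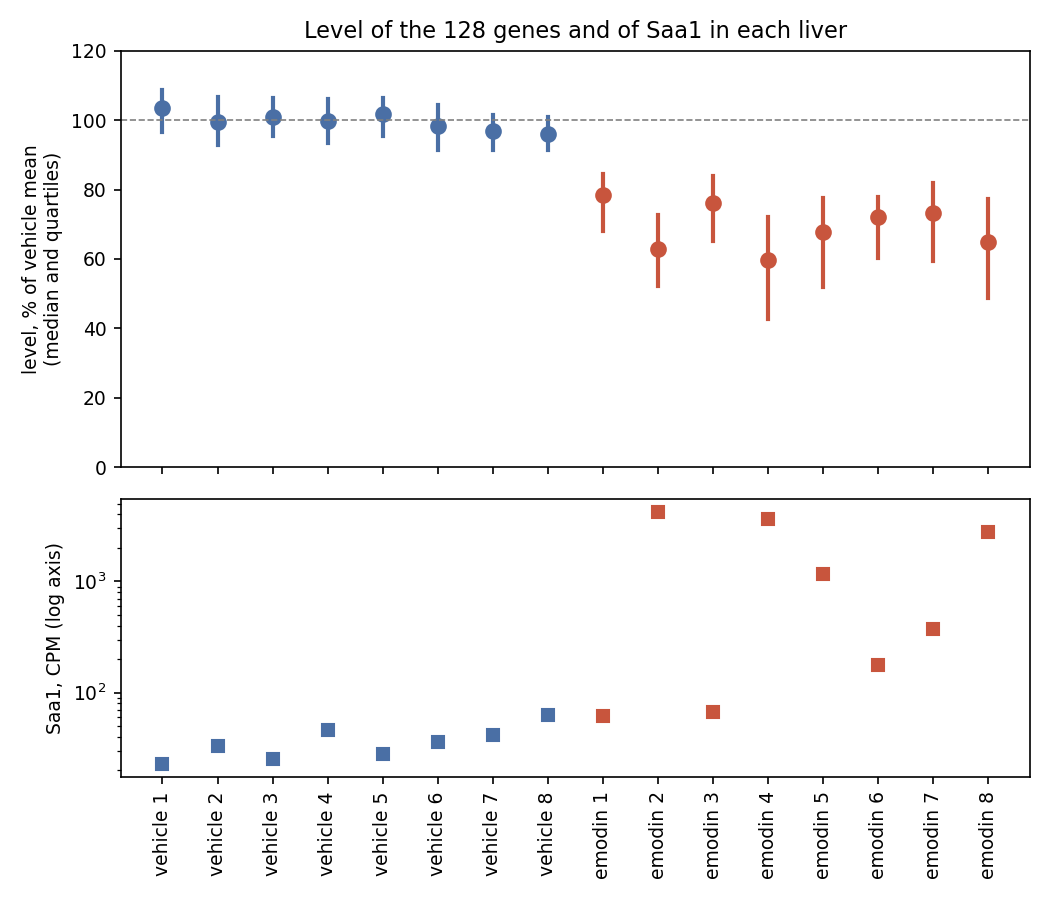
The upper panel plots the median and quartiles over the 128 genes of the level in each liver, in percent of the gene's vehicle mean, and the lower panel plots Saa1 in CPM on a log axis. The emodin medians run from 59.6% to 78.5%, and emodin 1 and emodin 3 have Saa1 of 61.5 and 67.6 CPM.

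The differences were mostly moderate. The log2 fold change of emodin against vehicle, from an edgeR model of all 14308 tested entries with TMM scaling (a trimmed mean of M-values, which corrects library totals for composition), had a median of -0.51 over the 128 genes and ran from -1.93 to -0.23. The median over all tested entries was 0.01. At least a 2-fold lower level was found for 20 genes. The same model called 782 entries lower in emodin (5.47%, Benjamini-Hochberg adjusted p under 0.05) and 1102 higher (7.7%), and 117 of the 128 were among those called lower, which follows from how they were chosen. Without emodin 2 the model called 521 entries lower, and without emodin 4 it called 709 higher. The counts called in each gene list are to be read beside the shares of 5.47% and 7.7%. All 128 are annotated as protein-coding, as are 99.89% of the genes that entered and could be annotated. Their median level was 54.3 CPM, against 15.4 CPM over all genes that entered, and their median coefficient of variation among vehicle livers was 9.35% against 13.2%. A condition on non-overlapping ranges favours genes with little spread. Genomic spans were longer, with a median of 39.0 kb against 24.4 kb and with 30 genes (23.4%) over 100 kb against 12.7% of all. Foxp2 had the longest, at 540629 bases.

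The condition depends on how libraries are scaled. With TMM factors in place of library totals, 119 genes met it, of which 85 were shared with the 128, and 34 others entered. Those 85 had a median log2 fold change of -0.64 and included 18 of the 20 genes with at least 2-fold lower levels. The 43 that met it only with library totals had a median of -0.44 and include Abcb11, Slc10a1, Baat, Abcd3, Hadha, Lipc, Apoh, Serpina6 and Afm. Setd4, Camk1d, Atxn1 and Nrep met it with either scaling.

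**Figure D3:**
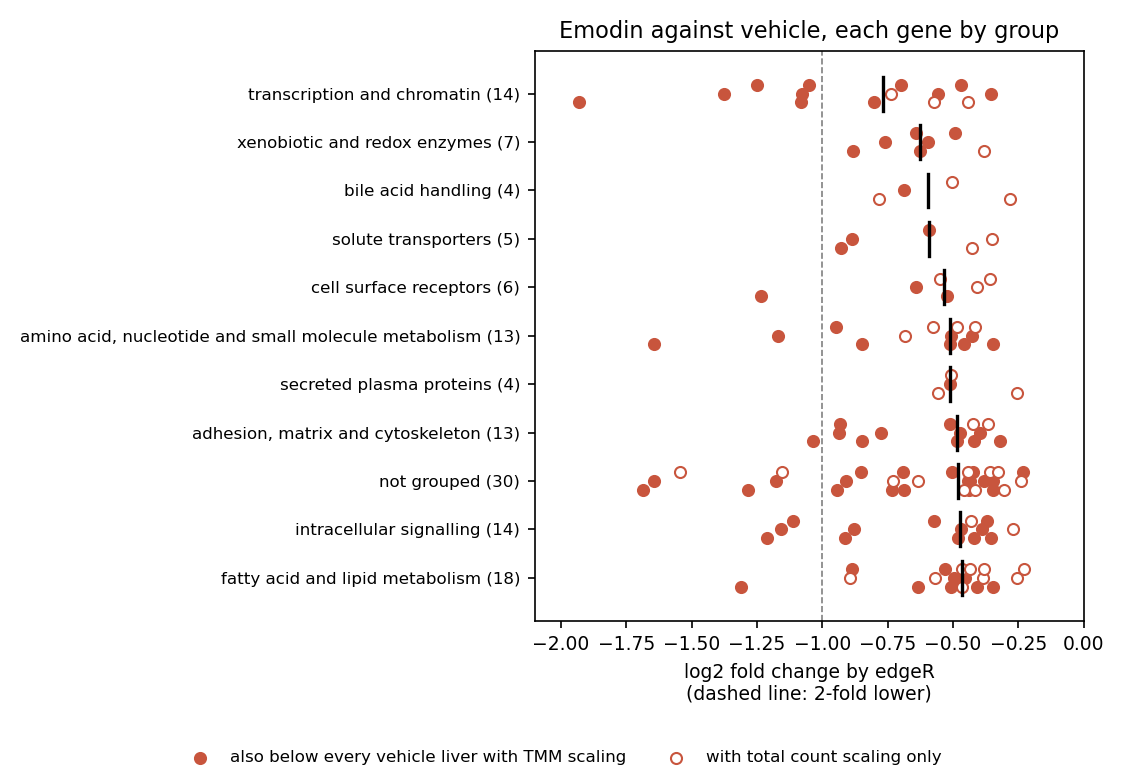
Each point is 1 of the 128 genes, placed by its edgeR log2 fold change of emodin against vehicle and by the group named on the vertical axis, with the number of genes in parentheses. Filled points also lie below every vehicle liver with TMM scaling, open points only with library totals, and the black bar is the group's median, which runs from -0.77 for transcription and chromatin to -0.46 for fatty acid and lipid metabolism.

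At the edge of the condition, Serpina6, Hadha, Adh4, Elk3 and Apoh were the closest inside. The lowest vehicle and highest emodin livers were 283.2 and 282.9 CPM for Hadha, and 91.97 and 91.85 CPM for Adh4. Just outside were Nipsnap1, Wdtc1, Abca8b and Cflar, with 84.86 CPM in the lowest vehicle and 84.97 CPM in the highest emodin liver for Cflar. The ratio of lowest vehicle to highest emodin level had a median of 1.05 and a maximum of 1.504 over the 128 genes, so that for most of them the groups were separated by a small margin.

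Among 14 genes of transcription and chromatin, the median log2 fold change was -0.77 and 6 were at least 2-fold lower. Their mean levels ran from 1.24 to 102.2 CPM, against 19.45 to 509.6 CPM for the fatty acid and lipid group. A gene with more spread needs a larger difference to meet the condition, so medians of groups at different levels are not directly comparable. Setd4 had 7.33, 10.2 and 12.9 CPM in the lowest, median and highest vehicle liver, and 2.999, 4.44 and 5.26 CPM in the emodin livers. The emodin livers were close to one another apart from emodin 3, the lowest, and the groups did not overlap. The mean was 10.3 ± 1.83 CPM in vehicle and 4.43 ± 0.66 CPM in emodin livers (SD, n = 8 each, as for every mean here), a log2 fold change of -1.25 ± 0.11 (SE). Setd4 is annotated on chromosome 16 from 93583457 to 93604063 (GENCODE M21, mm10), and an antisense transcript overlaps its exons. Of 36 tested genes for SET domain lysine methyltransferases, 3 were called lower and 2 higher, beside 5.47% and 7.7% of all entries. Besides Setd4, the lower ones were Prdm2 (log2 fold change -0.45, edgeR adjusted p = 0.0170) and Nsd3 (-0.33, adjusted p = 0.0230). The 2 called higher were Setd2 and Setmar. That count was 1 with total counts or with no filter on low counts, and 0 without vehicle 1, vehicle 4 or vehicle 8.

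Atxn1 had 17.3, 19.4 and 23.1 CPM in the lowest, median and highest vehicle liver and 7.61, 9.48 and 11.5 CPM in the emodin livers. Its lowest vehicle liver stood 1.5 times above its highest emodin liver, emodin 7. The log2 fold change was -1.08 ± 0.11. Atxn1 spans 415254 bases of chromosome 13 and its exons overlap Gmpr on the opposite strand, so unstranded reads from that stretch could not be told apart. Of 15 tested genes of ataxin 1, capicua and capicua targets, 1 was called lower, Atxn1 itself, and 3 were called higher, Cic, Dusp4 and Fos. That count of 3 was 0 with the replicate number as a block, and 1 with no filter, with array weights, and without emodin 4, emodin 5, vehicle 1, vehicle 3, vehicle 4, vehicle 6 or vehicle 7. Fos, an immediate early factor, had 1.28 ± 0.83 CPM in vehicle and 9.46 ± 14.4 CPM in emodin livers (adjusted p = 0.0319).

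Nr3c2, the mineralocorticoid receptor, had 14.9, 16.8 and 21.2 CPM in the lowest, median and highest vehicle liver, and 4.49, 5.52 and 11.03 CPM in the emodin livers. Emodin 1, 8 and 5 were the 3 highest of the treated livers, at 11.03, 9.88 and 8.87 CPM, and the other 5 lay between 4.49 and 5.76 CPM. The log2 fold change was -1.38 ± 0.17. Mbd1, which binds methylated CpG, had 103.5, 128.2 and 177.4 CPM in vehicle and 54.7, 68.5 and 79.1 CPM in emodin livers, with a log2 fold change of -1.05 ± 0.14. Its vehicle livers were widely spread, and all of them stood above the emodin livers.

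Rfx4, a factor of the RFX family, had the largest log2 fold change, -1.93 ± 0.29, at a low level. It lay between 0.75 and 3.11 CPM in the vehicle livers and between 0.29 and 0.69 CPM in the emodin livers. Bach2, a repressor best known in lymphocytes, had 6.42, 8.51 and 12.5 CPM in vehicle and 2.88, 4.41 and 5.73 CPM in emodin livers. Thra, the thyroid hormone receptor alpha, had 10.2, 11.9 and 13.5 CPM in vehicle and 5.18, 6.58 and 9.15 CPM in emodin livers, a log2 fold change of -0.80 ± 0.13. Its exons overlap Nr1d1 on the opposite strand, and Nr1d1, the clock repressor REV-ERB alpha, was itself lower, 75.3 ± 5.88 CPM in vehicle and 38.9 ± 20.5 CPM in emodin livers (adjusted p = 0.0138). Without strand information, reads of the overlap could come from either gene.

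The remaining transcription and chromatin genes were lowered less. Nr2f2, the orphan receptor COUP-TFII, had 40.0 ± 5.33 CPM in vehicle and 27.7 ± 3.67 CPM in emodin livers. The forkhead repressor Foxp2, the ETS factor Elk3, the acetyltransferase Kat2b, the histone chaperone Rbbp4 and the zinc finger gene Zfp652 had log2 fold changes between -0.74 and -0.36. Jade1, a scaffold of a histone acetyltransferase complex, had 32.7 to 40.7 CPM in 7 emodin livers and 4.74 CPM in emodin 2. Of 31 hepatocyte identity transcription factors tested, 4 were called lower (Nfib, Klf15, Nr5a2 and Nr2f2) and 7 higher.

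**Figure D4:**
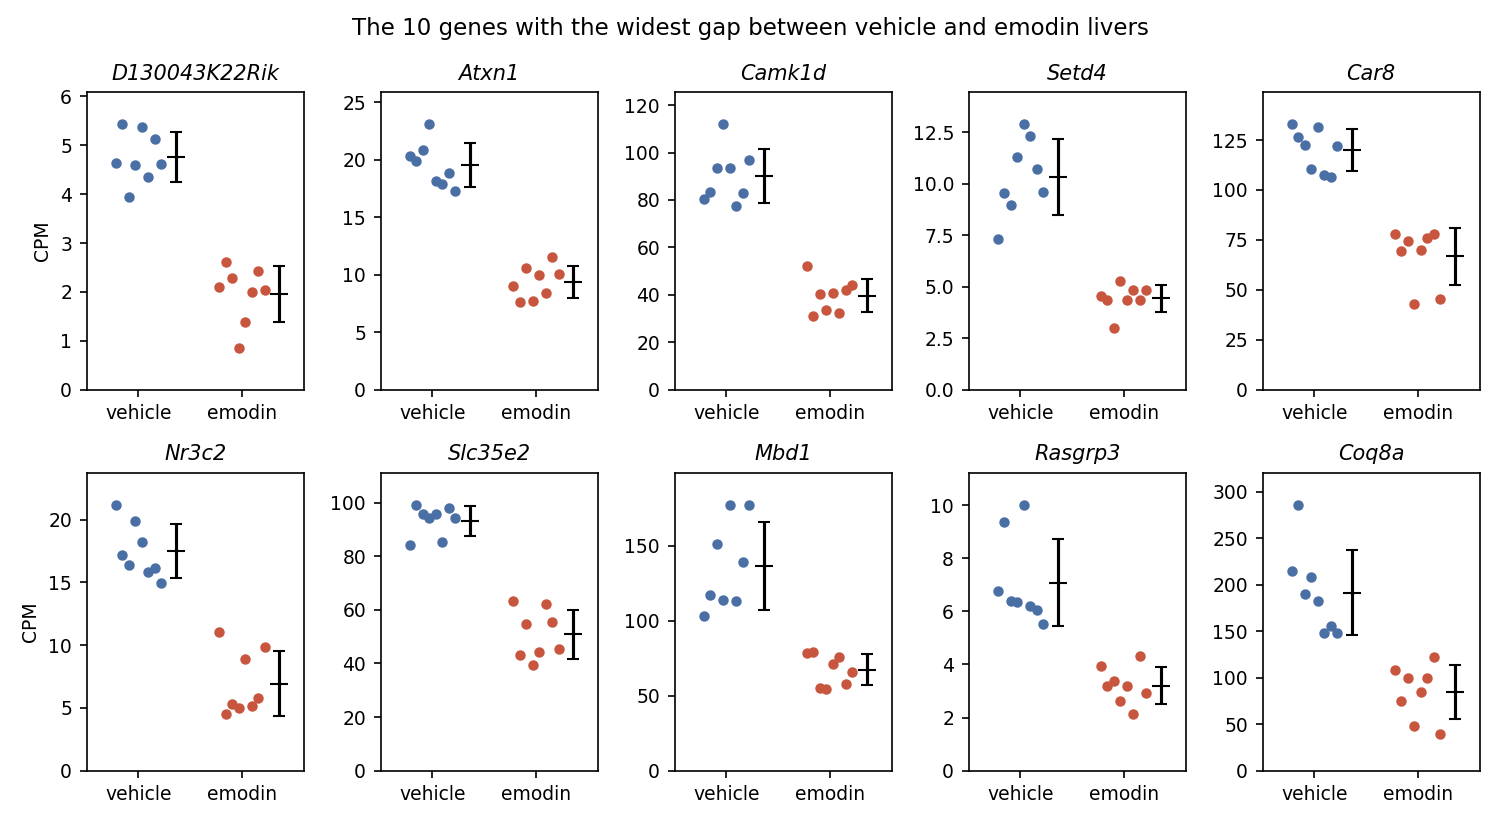
Each panel plots CPM per liver for 1 gene, with the mean and SD of 8 livers per group beside the points. The 10 genes have the highest ratios of lowest vehicle to highest emodin level, from 1.504 for D130043K22Rik to 1.21 for Coq8a, and no emodin point reaches a vehicle point.

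In intracellular signalling, Camk1d had the widest separation between the groups. It had 77.6, 88.3 and 112.1 CPM in the lowest, median and highest vehicle liver, and 31.3, 40.6 and 52.1 CPM in the emodin livers. Emodin 1 was the highest treated liver, and the lowest vehicle liver, vehicle 6, stood 1.49 times above it. The log2 fold change was -1.21 ± 0.11, and over all alternatives and left-out livers it ran from -1.28 to -1.16. Camk1d spans 421059 bases of chromosome 2. Of 18 tested genes for calmodulin and its kinases, 2 were called lower, Camk1d and the calcineurin catalytic subunit Ppp3ca (53.4 ± 6.96 CPM in vehicle and 40.4 ± 2.74 CPM in emodin livers), and none higher. The higher count was 1 with DESeq2, with array weights, and without emodin 3, vehicle 2 or vehicle 7.

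Other signalling genes with at least 2-fold lower levels were Rasgrp3, an exchange factor for Ras proteins, and Arhgap24, a GTPase-activating protein. Rasgrp3 had 5.54, 6.37 and 10.01 CPM in vehicle and 2.12, 3.19 and 4.31 CPM in emodin livers. Prkd3, a protein kinase of the D family, had 169.1 ± 26.7 CPM in vehicle and 91.4 ± 15.4 CPM in emodin livers. The phosphodiesterases Pde3a and Pde8a, the Akt phosphatase Phlpp1, the O-GlcNAc transferase Ogt, the Notch ligand ubiquitin ligase Mib1 and the translation repressor Eif4ebp2 had log2 fold changes from -0.88 to -0.35. Phlpp1 was the only one of these on the insulin signalling list, where 5 of 29 tested genes were called lower (with Irs1, Grb14, Insr and Pik3ca) and 2 higher. The lower count was 3 with no filter on low counts and without emodin 2, emodin 4, vehicle 3, vehicle 5, vehicle 7 or vehicle 8, and the higher count was 0 with the replicate number as a block and without vehicle 6 or vehicle 7.

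At the cell surface, Tnfrsf19, a receptor of the tumour necrosis factor receptor family, had 5.17, 7.12 and 9.53 CPM in vehicle and 2.26, 3.03 and 5.01 CPM in emodin livers. Adipor2, a receptor for adiponectin that is abundant in liver, had 362.8, 437.0 and 485.1 CPM in vehicle and 241.4, 266.8 and 350.7 CPM in emodin livers, with a log2 fold change of -0.64 ± 0.09. Only emodin 1 came near the vehicle range. The angiotensin receptor Agtr1a had 70.7 ± 5.82 CPM in vehicle and 48.9 ± 5.51 CPM in emodin livers. The adrenergic receptor Adra1b and the interleukin 1 receptor accessory protein Il1rap had log2 fold changes of -0.41 ± 0.13 and -0.36 ± 0.12.

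The 4 bile acid genes had log2 fold changes from -0.78 to -0.28, with a median of -0.60. Abcb11, the export pump for bile salts on the canalicular membrane, had 459.2, 560.4 and 700.9 CPM in the lowest, median and highest vehicle liver and 234.5, 318.9 and 451.0 CPM in the emodin livers. Emodin 4 and emodin 8 were the lowest, and emodin 6, at 451.0 CPM, lay just under the lowest vehicle liver. The log2 fold change was -0.78 ± 0.16. Slc10a1, the sodium-dependent uptake carrier for bile salts, had 554.8, 583.1 and 689.7 CPM in vehicle and 229.7, 467.0 and 546.5 CPM in emodin livers. Its treated livers were widely and evenly spread. Emodin 1 and emodin 3 were at 546.5 and 543.0 CPM, just under the lowest vehicle liver, emodin 7, 6, 2 and 5 were at 515.7, 493.0, 440.9 and 345.0 CPM, and emodin 4 and emodin 8 were at 278.5 and 229.7 CPM. Baat, which joins bile acids to amino acids, had 262.9 ± 13.5 CPM in vehicle and 219.2 ± 18.9 CPM in emodin livers. Akr1c14, an aldo-keto reductase acting on steroids, had 515.2 ± 53.5 CPM in vehicle and 321.8 ± 92.5 CPM in emodin livers, and near-identical relatives of it could share reads. With TMM scaling, Akr1c14 was the only one of the 4 that still lay below every vehicle liver.

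Of 29 genes of bile acid synthesis and FXR signalling, 5 were called lower and none higher. They were Abcb11, the co-receptor Klb (log2 fold change -0.75, adjusted p = 0.00886), the bile acid synthesis enzyme Hsd3b7 (-0.59, adjusted p = 8.06e-04), Nr5a2 and Fgfr4. The count was 10 with DESeq2, 9 with total counts in place of TMM and 9 without emodin 1. Slc10a1 and Baat were below every vehicle liver and yet not called.

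**Figure D5:**
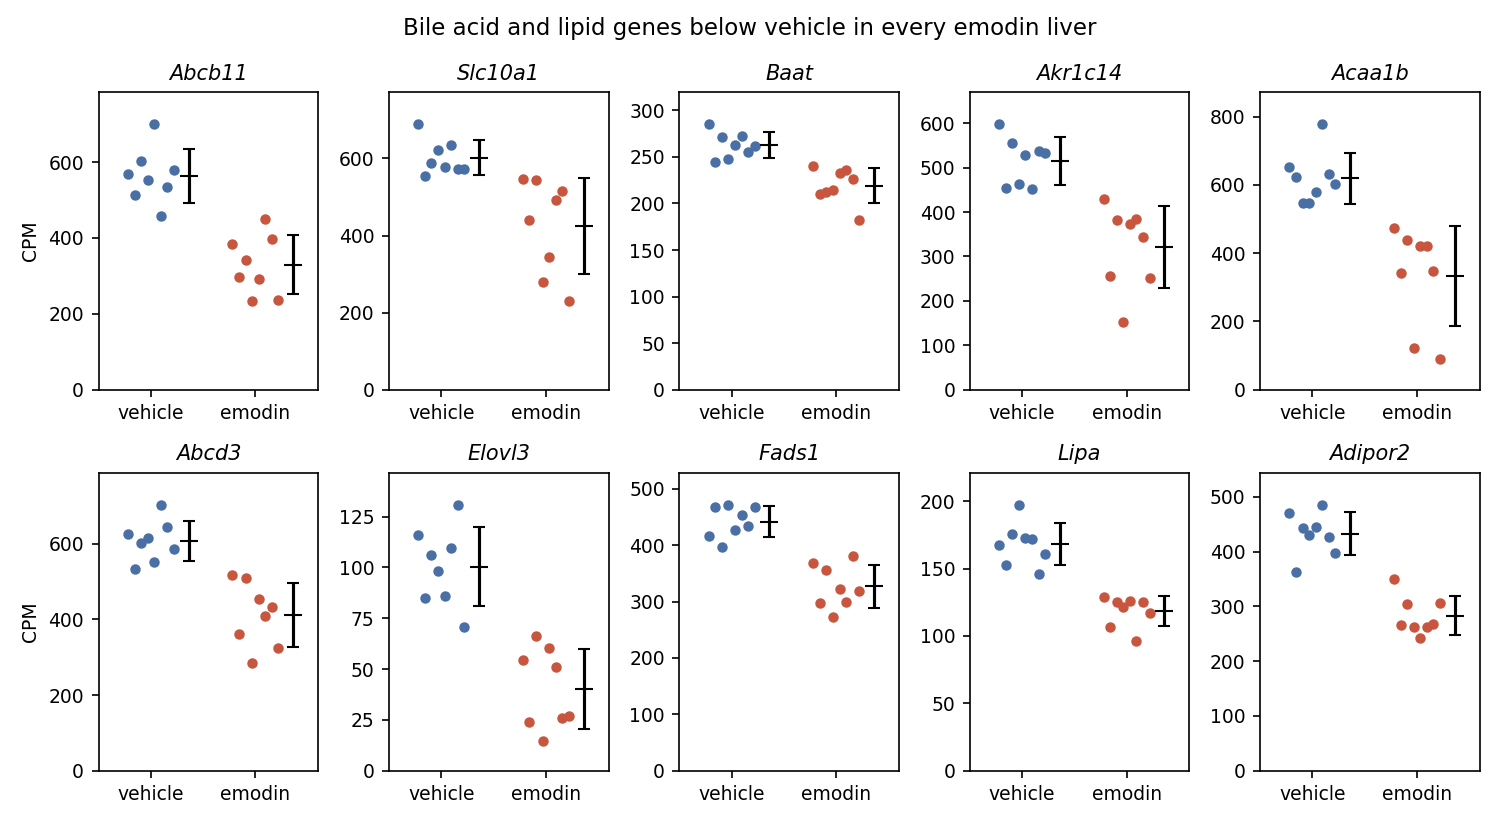
Each panel plots CPM per liver for 1 gene of bile acid or lipid metabolism, with the mean and SD of 8 livers per group. Slc10a1 and Acaa1b spread widely among emodin livers, from 229.7 to 546.5 CPM and from 90.6 to 474.2 CPM, whereas Lipa stayed between 96.5 and 129.2 CPM.

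Lipid genes formed the largest of the groups assigned by role, 18 genes with a median log2 fold change of -0.46. With TMM scaling, 9 of the 18 still lay below every vehicle liver. The share of lipid genes among all genes that entered was not counted. Elovl3, an elongase of very long chain fatty acids, was lowered most, with 70.7, 102.2 and 130.8 CPM in vehicle and 14.4, 38.9 and 66.3 CPM in emodin livers. Its highest treated liver was emodin 3 and its lowest emodin 4, and the log2 fold change was -1.31 ± 0.30. Fads1, a desaturase of polyunsaturated fatty acids, had 397.0, 444.0 and 471.7 CPM in vehicle and 273.1, 320.2 and 381.3 CPM in emodin livers, a log2 fold change of -0.45 ± 0.10. Of 25 tested genes of fatty acid synthesis, desaturation and elongation, 12 were called lower and none higher, while 1 was called higher with DESeq2 and without vehicle 4. The list median was -0.49, and 10 of the 12 are outside the 128, among them Fads3 (-1.37, adjusted p = 8.51e-05) and Elovl5 (-1.11, adjusted p = 3.99e-04), which had been left out by name.

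Peroxisomal and mitochondrial oxidation was represented by Acaa1b, Abcd3, Acbd5, Hadha, Etfa and Echs1. Acaa1b, a peroxisomal thiolase, had 545.4, 612.9 and 778.4 CPM in vehicle and 90.6, 384.3 and 474.2 CPM in emodin livers. Emodin 8 at 90.6 CPM and emodin 4 at 121.7 CPM were far below the other treated livers, and its SE was correspondingly large (log2 fold change -0.89 ± 0.30). Reads of its close relative Acaa1a may be shared with it. Abcd3, a fatty acid carrier of the peroxisomal membrane, had 533.6, 607.9 and 703.1 CPM in vehicle and 284.3, 421.7 and 517.9 CPM in emodin livers. Hadha, the alpha subunit of the mitochondrial trifunctional protein, had the smallest log2 fold change of all, -0.23 ± 0.08. Of 31 tested PPAR alpha targets and oxidation genes, 3 were called lower (Abcd3, Abcd2 and Hadhb) and none higher. The lower count was 6 with array weights in limma-voom, 5 with DESeq2, 5 with total counts and 5 without emodin 5, and 1 was called higher with DESeq2. Of 35 genes of peroxisome biogenesis and lipid oxidation, 5 were called lower and none higher. The higher count was 1 with total counts, with array weights, and without emodin 4, emodin 8 or vehicle 1.

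Other lipid genes acted in storage, transport and signalling. Lipa, the lysosomal acid lipase, had 145.6, 169.8 and 197.2 CPM in vehicle and 96.5, 123.4 and 129.2 CPM in emodin livers. Its treated livers were tightly grouped and stayed clear of the vehicle range. The phosphatidylcholine transfer protein Pctp, the lipid-binding protein Sec14l2, the hepatic lipase Lipc and the ketone body enzyme Bdh1 had log2 fold changes from -0.51 to -0.38. Of 27 tested cholesterol synthesis genes, 5 were called lower, among them Sc5d and Stard4, and none higher. None of the 5 is among the 128, and Sc5d and Stard4 had been left out by name.

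Small molecule metabolism contributed 13 genes. Coq8a, a kinase-like protein needed for coenzyme Q synthesis, had 147.8, 186.0 and 285.7 CPM in vehicle and 39.1, 92.1 and 122.4 CPM in emodin livers, a log2 fold change of -1.17 ± 0.24. Emodin 8 and emodin 4 were the lowest, and vehicle 2 stood above the other controls. Tymp, thymidine phosphorylase, and Ddah1, which breaks down methylated arginine, had log2 fold changes of -0.95 and -0.85. Agxt, which removes glyoxylate, Shmt1, which hands carbon units to folate, and Qdpr, which recycles biopterin, had log2 fold changes between -0.51 and -0.41. Of 43 amino acid catabolism genes, 3 were called lower (Amdhd1, Amt and Agxt) and 1 higher, beside 5.47% and 7.7% of all entries. The higher count reached 3 in the alternatives and 2 with a liver left out. Phospho1, a phosphatase known from mineralising tissue, was at 1.70 ± 0.63 CPM in vehicle and 0.56 ± 0.22 CPM in emodin livers, but it lies inside the span of Zfp652, another of the 128, with overlapping exons on the same strand, and reads of the overlap cannot be told apart.

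Enzymes of xenobiotic and redox metabolism numbered 7. Cyb5b, the cytochrome b5 of the outer mitochondrial membrane, had 401.4, 452.3 and 469.8 CPM in vehicle and 236.8, 285.6 and 371.5 CPM in emodin livers. Emodin 1 was the highest of the treated livers, and the next was emodin 5 at 321.7 CPM. Glo1, the glyoxalase that clears methylglyoxal, had 387.7 ± 24.2 CPM in vehicle and 277.8 ± 36.5 CPM in emodin livers, and Nqo2, a quinone reductase, 111.8 ± 6.07 and 72.3 ± 22.3 CPM. Bco2, a carotenoid-cleaving oxygenase, had 21.8 ± 1.29 CPM in vehicle and 13.0 ± 2.67 CPM in emodin livers. Cyp2g1 and Gstm7 were the only members of the P450 and the phase II conjugating lists. Of 42 tested P450 genes of families 1 to 3 with their reductase, 4 were called lower and 2 higher. Of 48 tested phase II genes, 5 were called lower and 1 higher. The shares over all entries were 5.47% called lower and 7.7% called higher. Over the alternatives and left-out livers, the lower counts ran from 3 to 8 in both lists, and the phase II count of genes called higher ran from 1 to 3. Both Cyp2g1 and Gstm7 have close paralogs, so their values are uncertain where reads were shared.

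Of the 4 secreted plasma proteins, Serpina6 is the corticosteroid carrier of blood, Klkb1 is plasma prekallikrein, Afm is the vitamin E binding afamin and Apoh is a phospholipid-binding glycoprotein. Apoh was the most abundant of the 128 per kilobase of exon as well as in CPM, with 1649.4, 1756.5 and 1900.7 CPM in vehicle and 1260.6, 1574.2 and 1644.6 CPM in emodin livers. Serpina6 had 231.3, 255.8 and 367.6 CPM in vehicle and 52.2, 207.8 and 231.3 CPM in emodin livers, where emodin 8 (52.2 CPM) and emodin 4 (81.6 CPM) were far below the rest. Of 26 negative acute phase and other plasma protein genes tested, 1 was called lower, Alb (83414 ± 8199 CPM in vehicle and 59534 ± 10713 CPM in emodin livers, adjusted p = 0.0309), and neither Serpina6 nor Apoh was called. The count was 0 with the replicate number as a block, and 0 without emodin 2, emodin 5, vehicle 3, vehicle 4, vehicle 5 or vehicle 8. Afm lies 7.56 kb from Albfm1, another of the 128, on chromosome 5.

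Among carriers for other solutes, Slc35e2 had 84.1, 94.9 and 99.1 CPM in vehicle and 39.4, 49.9 and 63.4 CPM in emodin livers, a log2 fold change of -0.89 ± 0.12. The groups were 1.33 times apart at their nearest. Slc25a21, the mitochondrial carrier of oxodicarboxylates, varied least among controls, 13.0 ± 0.27 CPM, and was at 8.75 ± 1.05 CPM in emodin livers. Slc17a4 had 45.2 ± 6.26 and 24.0 ± 5.25 CPM, Slc39a8, a carrier of zinc and manganese, had 23.9 ± 2.36 and 18.1 ± 2.26 CPM, and Slc6a13, a carrier of the GABA family, had 157.4 ± 11.7 and 124.9 ± 11.3 CPM.

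Genes of adhesion, matrix and cytoskeleton numbered 13, with a median log2 fold change of -0.48. Itga8, an integrin alpha subunit, had 3.70, 4.64 and 6.49 CPM in vehicle and 0.99, 2.29 and 3.22 CPM in emodin livers. The matrix peroxidase Pxdn, the synaptic scaffold gene Shank2, the tetraspanin-like Tm4sf1 and the endothelial protocadherin Pcdh12 had log2 fold changes from -0.94 to -0.77. The syndecan Sdc2 and the heparan sulfate enzyme Ndst1 were lowered less, by 0.32 and 0.36 on the log2 scale, from 195.1 ± 6.42 to 158.8 ± 10.9 CPM for Sdc2. Of 30 tested endothelial markers, 6 were called lower and none higher (Calcrl, Adgrl4, Tek, Rspo3, Kdr and Nrp1), and their summed level was 438.8 to 702.5 CPM in vehicle and 428.4 to 601.4 CPM in emodin livers. Of 27 stellate cell and fibroblast markers, 1 was called lower, Rgs5, with summed levels of 408.6 to 883.4 and 375.6 to 633.2 CPM. The median of that list was -0.161, with 19 of the 27 below 0. Over the alternatives and left-out livers, the stellate count ran from 0 to 4. None of these markers was at 0. Their part in the lower values of Pcdh12, Tm4sf1 and Itga8 was not tested.

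Nrep and the remaining genes were not grouped by function. Nrep had 6.52, 10.5 and 24.2 CPM in the lowest, median and highest vehicle liver and 2.46, 3.99 and 5.46 CPM in the emodin livers. Vehicle 6, vehicle 1 and vehicle 2 were the highest controls, at 24.2, 19.7 and 14.8 CPM, and the groups did not overlap. The coefficient of variation among the emodin livers was 32.3%, against a median of 15.2% over the 128 genes. The log2 fold change was -1.69 ± 0.28, the second largest of all. D130043K22Rik, named for its cDNA clone, had the widest separation, with 3.94 CPM in the lowest vehicle liver and 2.62 CPM in the highest emodin liver. Car8, a carbonic anhydrase relative without enzyme activity, had 106.6, 122.2 and 133.1 CPM in vehicle and 43.2, 72.4 and 78.0 CPM in emodin livers, and emodin 4 and emodin 8 were the lowest. Serpinb1a, an inhibitor of neutrophil proteases, had 4.53 ± 1.36 CPM in vehicle and 1.54 ± 0.73 CPM in emodin livers, and 1810046K07Rik and Spata6l were at least 2-fold lower at low levels, with 3.05 and 2.24 CPM in their highest vehicle livers. Exons of 52 of the 128 genes overlap another annotated gene, 38 of them over more than 200 bases. The share with such overlaps among all genes that entered was not counted.

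Markers of other cell types were read against the 5.47% of all entries called lower and the 7.7% called higher. Of 24 Kupffer cell and macrophage markers, 1 was called higher, of 18 T, NK and B cell markers, 2 were called lower, of 5 neutrophil markers, 1 was called higher, and of 14 bile duct and progenitor markers, 2 were called higher. The T, NK and B cell list had a median log2 fold change of -0.78, with 17 of its 18 tested genes below 0, and its summed level was 27.2 to 67.4 CPM in vehicle and 18.9 to 47.3 CPM in emodin livers. Over the alternatives and left-out livers, the 4 counts ran from 1 to 2, from 1 to 4, stayed at 1, and ran from 1 to 4. The 15 hepatocyte markers summed to 131964 to 154958 CPM in vehicle and 105707 to 132172 CPM in emodin livers. Among them, Alb was called lower and Fgb higher. Alb made up a large part of the sum, with a mean of 83414 CPM in vehicle and 59534 CPM in emodin livers. Gene by gene, 9 of the 15 markers lay below 0 on the log2 scale, and the middle value was -0.027. The call of Fgb was lost in 10 of 22 alternatives and left-out livers, among them those without emodin 2, emodin 4 or emodin 8, and that of Alb in 8. The vehicle and emodin ranges of that sum overlapped at their edges. Its part in the lower levels of hepatocyte genes such as Abcb11, Slc10a1 and Abcd3 was not tested.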

How the data were processed

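RNA sequencing of 16 mouse livers, 8 per group, was analysed from 1 deposited table of estimated counts per gene, whole numbers with no scaling by the authors for depth or length. The table is labelled FPKM, a unit scaled for depth and length, but 0 of its values were not whole. The unit was therefore read from the values and not from the label. The genome build was mm10 and the programs were HISAT2, HTSeq 0.6.1, Cufflinks 2.2.1, SAMtools 0.1.19 and cutadapt 1.9.1, per the submitters' processing notes. Their roles, the handling of shared reads and the use of strand are not given in the sources used here.

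Levels are CPM from library totals (28.3 M to 48.2 M, M for mega). Log2 fold changes and adjusted p-values come from edgeR 4.0.16 (R 4.3.3), with TMM, its filter on low counts and robust quasi-likelihood F-tests on group, over 14308 entries. On simulated data the test was checked against known changes. The spread between simulated libraries was set alike for every gene and in both groups. In the livers, the median coefficient of variation over all genes that entered was 13.2% in vehicle and 20.1% in emodin. The check therefore does not cover unequal spread. Alternatives were DESeq2 1.42.0, limma 3.58.1 with array weights, total counts, TMM without the 50 most abundant entries, no filter, the replicate number as a block, and leaving out each liver. For the selection, TMM factors and minimum means of 0.5 and 5 CPM were tried.

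The 128 genes and the 35 gene lists used beside them were chosen with earlier results of these data known. Groups by role were assigned after the members were seen. Named genes are the 4 markers, the 12 members with the largest log2 fold change, the 10 with the highest ratio of lowest vehicle to highest emodin CPM, the 10 with the highest mean CPM, up to 4 members per list, the 5 nearest the threshold on each side, and per list up to 2 other genes called lower and 1 called higher. A few items that this rule names are not reported here. Other members, and other called list genes, were named after their values were seen. Same-numbered livers of the groups did not deviate together (1 of 8 pairs with a correlation over 0.1), so numbers were not taken as pairs. Gene positions and overlaps are from GENCODE M21, promoter windows from RefSeq.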

Additional observations from a re-analysis of the deposited data

Results flagged for a closer look

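In 78 groups of 8 livers (39 named genes in 2 groups), 6 had a highest or lowest liver set apart from the rest by Dixon's criterion, which compares the gap to the nearest liver with the group's range, and chance alone marks about 1 group in 20. Setd4 was at 2.999 CPM in emodin 3, with the next treated liver at 4.34 CPM. The transcript 1810046K07Rik was at 1.35 CPM in emodin 1, the next treated liver being at 0.85 CPM. The other 4 were single vehicle livers above the remaining controls. Serpina6 was at 367.6 CPM in vehicle 8 (next 268.9 CPM), Acaa1b at 778.4 CPM in vehicle 6 (next 651.4 CPM), Adh4 at 148.1 CPM in vehicle 1 (next 115.3 CPM) and Gstm7 at 50.9 CPM in vehicle 2 (next 46.4 CPM). None of the 4 sets the lower edge of the vehicle range, which decided membership.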

How the results depend on the processing

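The count of genes below vehicle in every emodin liver was 119 with TMM factors, 118 with TMM factors computed without the 50 most abundant entries, 130 with a minimum mean of 0.5 CPM and 113 with 5 CPM. With 1 liver left out it was 129 (without emodin 2) to 191 (without emodin 1). Leaving out a liver can only loosen the condition on ranges, while the mean of at least 1 CPM was taken over the remaining livers. The members' median log2 fold change ran from -0.56 to -0.44 over all alternatives and left-out livers, and 16 to 23 of them were at least 2-fold lower. With the replicate number as a block, which is not supported as a pairing (same-numbered livers correlated at -0.15 to 0.25, and 2 of 8 correlated best with their own number), the model called 635 entries lower and 628 higher, and the members' median was -0.54. DESeq2 called 1119 lower and 1413 higher. With 1 liver left out, 521 to 903 entries were called lower and 709 to 1333 higher. Of the 128 genes, 27 had a mean under 10 CPM, with fewer counts behind each value. The cause of these shifts was not tested.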

Other observations

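Loci that the table lists without an Ensembl identifier were outside the selection. Of 868 such loci with a mean of at least 1 CPM, 14 lay below every vehicle liver in all emodin livers and 3 lay above. These loci were picked after their values were seen, and the table gives them no gene name. The locus listed as NewGene_5545 had 39.9 ± 15.9 CPM in vehicle and 7.82 ± 5.13 CPM in emodin livers (SD, n = 8 each), with 24.5 CPM in the lowest vehicle and 15.99 CPM in the highest emodin liver. NewGene_7842 had 14.0 ± 3.48 CPM in vehicle and 3.16 ± 1.32 CPM in emodin livers, a log2 fold change of -2.15. Its ratio of lowest vehicle to highest emodin level, 1.62, was above the highest ratio among the 128 genes, 1.504.

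Spread among the treated livers differed between members. Elovl3, Serpinb1a, Gm4952 and Acaa1b had the highest coefficients of variation in the emodin livers, 48.7%, 47.4%, 45.3% and 44.1%. Ptp4a2, a protein phosphatase, and the adhesion protein gene Nectin3 had the lowest, 3.81% and 5.41%. Gm4952 was at 81.9 CPM in emodin 3 and 13.9 CPM in emodin 8. Jade1 was at 4.74 CPM in emodin 2, and the next treated liver was at 32.7 CPM. By chromosome, members made up 2.44% of the genes that entered from chromosome 18, 2.17% from chromosome 16 and 0.50% from chromosome 14. Over all genes that entered, 1.18% met the condition before names were left out. These chromosomes were picked after their values were seen, and their counts of 7, 8 and 2 genes are small.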
